A study of Mus musculus with 7 samples.

Results

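The 10 genes described here encode proteins that place, bind or remove N6-methyladenosine (m6A) on RNA, namely the writers Mettl3, Mettl14, Wtap and Zc3h13, the readers Ythdc1, Ythdf1, Ythdf3 and Igf2bp2, and the erasers Alkbh5 and Fto. They were chosen by name among the 55364 genes of the expression table, each was found in 1 row, and all 10 reached 1 TPM in at least 2 libraries and entered the test. TPM, the abundance of transcripts after correction for length, is a read number corrected for the length of the exons and expressed per fixed total. It is thus a share of the RNA, which can be compared between genes of a library. Between libraries only shares are compared, and such differences depend on the scaling, as given below. The cells were mini-oocytes, oocyte-like cells induced from the female mESC line BVSC H18, a 129 and C57BL/6 hybrid, by oocyte transcription factors fused to a destabilization domain that the ligand Shield-1 protects from degradation. In 4F-mini-oocytes the 4 factors were Nobox, Figla, Tbpl2 and Lhx8, and in 8F-mini-oocytes Stat3, Dynll1, Sub1 and Sohlh1 were added, in a line that also carries an Npm2-mCherry reporter. All cells grew on laminin in a StemPro-34-based medium with SCF and Y-27632, without ovarian somatic cells, and Shield-1 was left out of fresh medium in the later part of the culture, after day 7. There were 2 libraries of 4F at day 7, 3 of 4F at day 21 and 2 of 8F at day 21, each from a pool of cells.

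In m6A biology, METTL3 is the catalytic subunit and METTL14 the RNA-binding partner of a heterodimer that methylates nascent RNA, WTAP anchors the dimer in nuclear speckles, and ZC3H13 holds the associated regulatory subunits in the nucleus. Readers of the YTH family bind the methylated base directly, YTHDC1 in the nucleus and the YTHDF proteins in the cytoplasm, whereas IGF2BP proteins bind and stabilise methylated messages. ALKBH5 and FTO are oxidative demethylases, and m6A is known to be needed in the oocyte for RNA processing, for the storage of maternal messages and for their later clearance.

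Replicate libraries of a group differed by more than counting noise (chi-square of 9.77 to 35.4 per degree of freedom), and the estimated number of reads on genes was 9506135 to 18027834 per library. Behind the values of the 10 genes stood from 186 reads (Fto, its lowest library) to 13045 reads (Alkbh5, its highest). The summed level of 10 oocyte markers was 5634 to 7288 TPM at day 7, 27814 to 30600 TPM in 4F at day 21 and 23316 to 23494 TPM in 8F, with none at 0. Mean Dazl was 49.1 TPM at day 7, 72.7 TPM in 4F at day 21 and 8.34 TPM in 8F, and Ddx4 117, 205 and 109 TPM. Means of all the other oocyte markers were higher at day 21 than at day 7 in both 4F and 8F. Over 6 pluripotency markers the sum was 85.8 to 96.9 TPM at day 7, 243 to 356 TPM in 4F at day 21 and 136 to 176 TPM in 8F. These markers did not move together. Mean Pou5f1 was 27.3 TPM at day 7, 196 TPM in 4F at day 21 and 88.1 TPM in 8F, and Esrrb 8.12, 36.7 and 35.0 TPM. Zfp42 went the other way, with 21.2, 7.30 and 4.67 TPM, and Nanog was at 0 in both groups at day 21. Group means of Klf4 and Tfcp2l1 stayed between 14.0 and 22.0 TPM. A sum over 6 granulosa cell markers did not pass 3.98 TPM in any library, and Inha was at 0 in every group. The sum over 6 trophoblast and epithelial markers, among them Krt8 and Krt18, was 1145 to 1712 TPM at day 7, 38.7 to 137 TPM in 4F at day 21 and 26.1 to 33.6 TPM in 8F, with Cdx2 and Elf5 at 0 at day 7. The oocyte, pluripotency and trophoblast sums moved with the day. The granulosa sum overlapped between the days in 4F, at 0.34 to 1.31 TPM and 0.05 to 2.90 TPM. The part of these cell type markers in the m6A differences was not tested. The pools at day 7 held many more cells than those at day 21, so day and pool size cannot be told apart, nor can fewer cells of a kind and less RNA per cell. Shield-1 was left out of fresh medium only after day 7, so its withdrawal cannot be told apart from day either.

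Promoter sequences of 8 of the 10 genes were found in RefSeq on GRCm38.p6. The promoters of Wtap and Zc3h13, which had the largest increases between the days, and of Alkbh5, which fell, are shown from 250 bases before to 50 bases after the annotated start. Each is written 5′ to 3′ on the strand of the gene. Capitals mark, on either strand, TAATTA and TAATTG, letters that the homeodomain of NOBOX is known to bind, and CANNTG, the E-box that basic helix-loop-helix factors such as FIGLA and SOHLH1 bind.
Wtap, chr17:12992494-12992793, minus strand: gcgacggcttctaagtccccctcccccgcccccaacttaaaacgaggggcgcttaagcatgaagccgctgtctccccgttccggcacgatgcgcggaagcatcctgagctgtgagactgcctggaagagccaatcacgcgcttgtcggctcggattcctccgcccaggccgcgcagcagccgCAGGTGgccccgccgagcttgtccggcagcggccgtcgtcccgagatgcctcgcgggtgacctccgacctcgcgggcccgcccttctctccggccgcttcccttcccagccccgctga
Zc3h13, chr14:75284116-75284415, plus strand: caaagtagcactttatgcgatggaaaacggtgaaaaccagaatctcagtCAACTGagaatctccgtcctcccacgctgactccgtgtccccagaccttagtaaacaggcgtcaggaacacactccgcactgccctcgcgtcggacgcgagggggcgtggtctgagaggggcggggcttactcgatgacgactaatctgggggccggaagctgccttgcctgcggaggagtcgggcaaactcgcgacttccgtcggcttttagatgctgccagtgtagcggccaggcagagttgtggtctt
Alkbh5, chr11:60537433-60537732, plus strand: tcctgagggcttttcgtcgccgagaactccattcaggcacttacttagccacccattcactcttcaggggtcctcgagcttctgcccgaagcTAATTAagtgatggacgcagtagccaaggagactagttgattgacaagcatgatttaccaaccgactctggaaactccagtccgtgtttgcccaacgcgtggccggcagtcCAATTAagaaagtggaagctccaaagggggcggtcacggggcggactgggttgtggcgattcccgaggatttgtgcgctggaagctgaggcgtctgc
The table lists 3 starts for Wtap and 2 for Zc3h13, of which the first was used. Wtap held 1 E-box, CAGGTG, whose first base lay at -68 from the start, and Zc3h13 held CAACTG at -201. Alkbh5 held no E-box, but TAATTA at -158 and TAATTG, read as CAATTA on the strand of the gene, at -47, and it was the only one of the 8 promoters with either. Among all 32817 promoters of the table, 72.3% held CANNTG, 5.3% TAATTA and 8% TAATTG. The letters TATAAA, found in 13.6% of all promoters, were in none of the 8. These matches describe letters in a window and were not set against binding data.

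At day 7 the 10 genes spanned a wide range of levels. Alkbh5 was the highest at 396 ± 30.1 TPM (SD, n = 2), above 99.2% of the 21780 genes tested, followed by Igf2bp2 at 222 ± 22.7 TPM and Zc3h13 at 98.6 ± 0.23 TPM. Fto was the lowest at 11.8 ± 1.13 TPM, just below Mettl3 at 15.8 ± 0.59 TPM. The only neighbours in this order whose libraries overlapped were Ythdc1 and Mettl14. In 4F at day 21 the order at the top had become Igf2bp2 at 335 ± 19.8 TPM, Alkbh5 at 307 ± 12.2 TPM and Zc3h13 at 291 ± 28.7 TPM (SD, n = 3), and the libraries of Alkbh5 and Zc3h13 overlapped. In 8F at day 21 Alkbh5 again came first with 290 ± 23.3 TPM, ahead of Igf2bp2 with 241 ± 11.4 TPM and Zc3h13 with 170 ± 22.6 TPM (SD, n = 2), with no overlap between neighbours. Summed by role, the 4 writers went from a mean of 176 TPM at day 7 to 492 TPM in 4F at day 21 and 342 TPM in 8F, the 4 readers from 386 to 521 and 435 TPM, and the 2 erasers from 408 to 312 and 295 TPM. The summed level of the writers was thus below that of the erasers in both libraries at day 7 and above it in all 5 libraries at day 21. This holds within each library and needs no scaling between them, but each sum rested largely on 1 gene. In 4F at day 21, Alkbh5 gave 307 of the 312 TPM of the erasers and Zc3h13 gave 291 of the 492 TPM of the writers. Mettl3, Mettl14 and Wtap were each below Alkbh5 in every library, so the pattern does not describe each gene of a role.

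**Figure D1:**
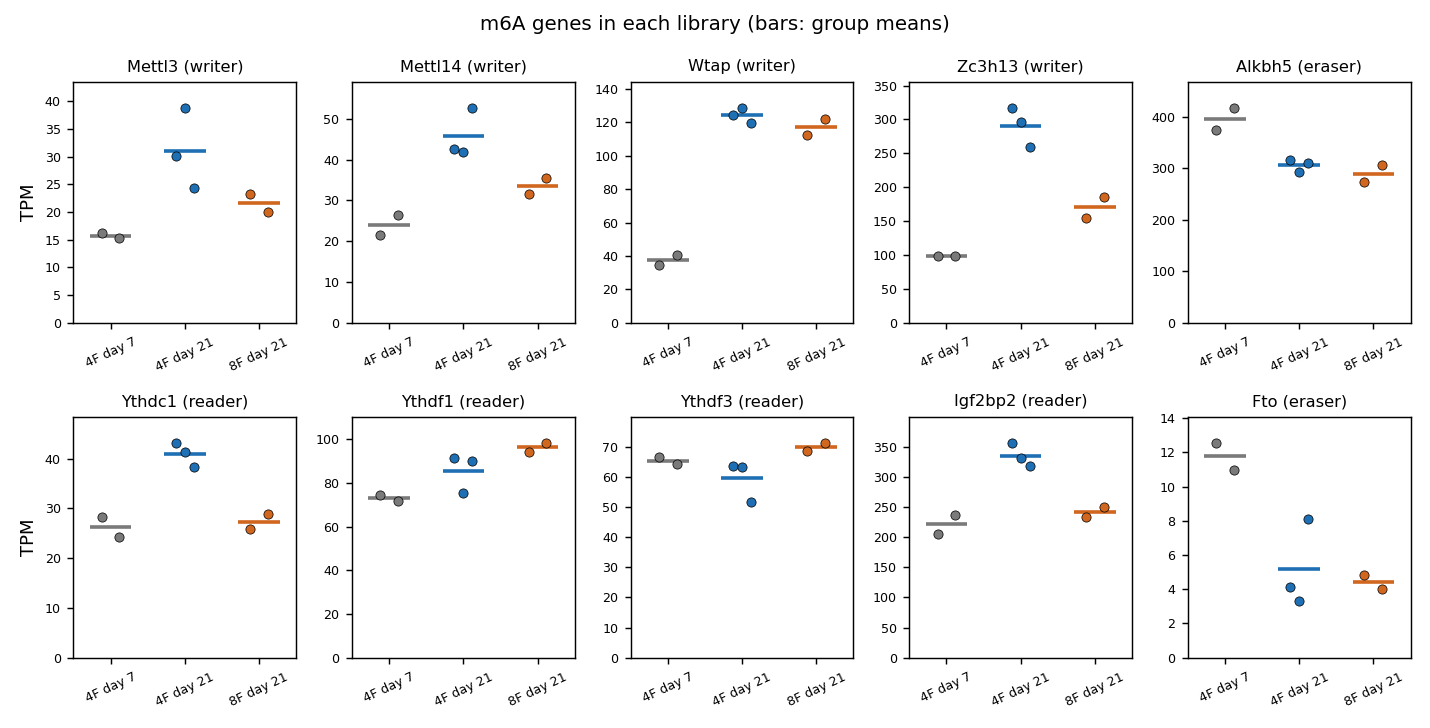
TPM of the 10 m6A genes (vertical axes, each from 0) in the 7 libraries, grouped as 4F at day 7, 4F at day 21 and 8F at day 21; points are libraries and bars are group means. All libraries at day 21 lie above both at day 7 for Mettl3, Mettl14, Wtap, Zc3h13 and, narrowly, Ythdf1, and below both for Alkbh5 and Fto.

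The first comparison asked how the 4F cells differed between day 7 and day 21. Of the 10 m6A genes, 6 rose and 1 fell in limma with Benjamini-Hochberg adjustment over 21780 genes at FDR 0.05, and 3 did not pass. Of all genes tested, 40.6% passed in either direction, 25.3% as higher and 15.3% as lower at day 21. The 4 writers all rose, the readers Ythdc1 and Igf2bp2 rose, the eraser Alkbh5 fell, and Ythdf1, Ythdf3 and Fto were not called. The median log2 fold change of the 10 genes was 0.61, and that of all genes tested was 0.17. The size and sign of that overall median depended on the scaling between libraries, being -0.06 after median-of-ratios scaling, 0.04 after quantile normalization and -0.32 in a voom fit to reads recovered from the TPM. Of all calls, 62.3% were higher at day 21 on the deposited scale, 48.6% after median of ratios, 52.0% after quantile normalization and 37.3% with voom. The calls among the 10 genes moved in the same way. After median of ratios 3 rose (Wtap, Zc3h13 and Mettl14) and 3 fell (Alkbh5, Fto and Ythdf3), after quantile normalization 2 rose (Wtap and Zc3h13) and 3 fell (Alkbh5, Ythdf1 and Ythdf3), and with voom the same 2 rose and 3 fell (Alkbh5, Fto and Ythdf3). For this reason differences are also given relative to the median of the genes tested.

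Among the writers, Wtap (ENSMUSG00000060475.13, mm10 chr17:12966796-12994169, minus strand) stood at 34.6 and 40.8 TPM at day 7 and at 124, 128 and 119 TPM at day 21 in 4F. The groups were far apart, and the libraries within each lay close together. Its log2 fold change was 1.69 ± 0.12 (SE, limma, Benjamini-Hochberg adjusted p = 0.000134), or 1.53 above the median gene, and it passed under all 17 alternative settings, between 1.16 and 1.81. Another listed gene, Gm14292, is 99.34% identical to Wtap over 456 bases and had 36.9 and 46.0 TPM at day 7, then 70.0, 105 and 69.6 TPM at day 21 in 4F. Since only uniquely mapped reads were counted, reads of this gene and of Wtap can be lost or assigned to the wrong one where they cannot be told apart, and the part of this in the values was not tested.

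Zc3h13 (ENSMUSG00000022000.11, mm10 chr14:75284373-75344426, plus strand) stood at 98.8 and 98.5 TPM at day 7 and at 317, 296 and 260 TPM at day 21 in 4F. Here too every library at day 21 was far above both at day 7. The log2 fold change was 1.55 ± 0.13 (SE, limma, adjusted p = 0.000274), 1.38 above the median gene, and passed under all 17 alternatives, between 0.93 and 1.62.

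The catalytic pair moved less. Mettl3 (ENSMUSG00000022160.18, mm10 chr14:52294841-52305128, minus strand) was at 16.2 and 15.3 TPM at day 7 and 30.1, 38.8 and 24.4 TPM at day 21 in 4F. The groups did not overlap, but the day 21 libraries spread widely. Its log2 fold change was 0.92 ± 0.23 (SE, limma, adjusted p = 0.0179), and it did not pass after median-of-ratios scaling (0.59), after quantile normalization (0.66), with voom (0.41), or without either library of day 7 (0.95 without replicate 1 and 0.88 without replicate 2, adjusted p = 0.0577 and 0.0685 in limma). Of its exonic bases 933, or 18.4%, also lie in exons of Tox4 on the opposite strand, which was at 22.9 TPM at day 7 and 27.2 TPM at day 21 in 4F on average. The counting gave a fraction of a read to each overlapping gene, and no strand option is stated for it. The values of Mettl3 can therefore hold part of the reads of Tox4, and how large that part was was not tested.

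Mettl14 (ENSMUSG00000028114.16, mm10 chr3:123368297-123386108, minus strand) was at 21.5 and 26.5 TPM at day 7 and 42.5, 41.9 and 52.6 TPM at day 21 in 4F. All 3 later libraries were above both earlier ones. The log2 fold change was 0.90 ± 0.17 (SE, limma, adjusted p = 0.00678), 0.73 above the median gene, and it missed the threshold only after quantile normalization (0.54) and with voom (0.36). The writers did not rise in step. The ratio of Wtap to Mettl3 within a library, which scaling between libraries leaves unchanged, was 2.14 and 2.66 at day 7 and 4.12, 3.31 and 4.89 at day 21 in 4F, without overlap, whereas that of Zc3h13 to Wtap was 2.85 and 2.41 against 2.55, 2.31 and 2.18, with overlap. Mettl14 to Mettl3 ranged from 1.08 to 2.16 over all 7 libraries and overlapped between the groups.

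Among the readers, Ythdc1 (ENSMUSG00000035851.14, mm10 chr5:86804221-86836659, plus strand), the nuclear YTH protein, was at 28.2 and 24.3 TPM at day 7 and 43.2, 41.2 and 38.2 TPM at day 21 in 4F, without overlap. Its log2 fold change was 0.62 ± 0.15 (SE, limma, adjusted p = 0.0153), 0.45 above the median gene. It remained positive under all 17 alternatives but did not pass after median of ratios (0.29), quantile normalization (0.23) or with voom (0.11), nor without replicate 2 of day 7 (0.52, limma adjusted p = 0.069). With the replicate number as a block, its adjusted p in limma was 0.0541. The long noncoding gene Gm43055 shares 631 exonic bases with Ythdc1 on the same strand, 4.62% of the exons of Ythdc1, and its mean was 79.2 TPM at day 7, 162 TPM in 4F at day 21 and 102 TPM in 8F, higher in 4F at day 21 as Ythdc1 was. Reads of the shared bases were counted as a fraction for each gene, and how far they set either value was not tested.

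Igf2bp2 (ENSMUSG00000033581.17, mm10 chr16:22059009-22163299, minus strand), the most abundant reader in every group, was at 206 and 238 TPM at day 7 and at 357, 332 and 317 TPM at day 21 in 4F. The groups did not overlap, and the log2 fold change was 0.60 ± 0.11 (SE, limma, adjusted p = 0.00533). This call held without any 1 library and was lost after median of ratios (0.26), quantile normalization (0.03) and with voom (0.05). After quantile normalization it lay 0.01 below the median gene, so a rise of Igf2bp2 relative to other genes was not seen under that scaling.

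The cytoplasmic readers Ythdf1 and Ythdf3 showed smaller differences. Ythdf1 (ENSMUSG00000038848.14, mm10 chr2:180904377-180920949, minus strand) was at 74.3 and 71.6 TPM at day 7 and 91.3, 75.2 and 90.3 TPM at day 21 in 4F, with replicate 2 of day 21 next to the day 7 libraries. Its log2 fold change of 0.22 had a 95% interval from -0.07 to 0.52 (limma, adjusted p = 0.195), and its sign turned after median of ratios, with voom and after quantile normalization, where it passed as lower (-0.40, limma adjusted p = 0.0378). Ythdf3 (ENSMUSG00000047213.14, mm10 chr3:16183212-16217037, plus strand) was at 66.7 and 64.2 TPM at day 7 and 63.7, 63.2 and 51.8 TPM at day 21 in 4F, a log2 fold change of -0.14 with an interval from -0.45 to 0.17 (limma, adjusted p = 0.439). Every day 21 library of Ythdf3 was below both at day 7, by little in 2 of the 3, and it passed as lower after median of ratios (-0.48), quantile normalization (-0.72) and with voom (-0.68).

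Among the erasers, Alkbh5 (ENSMUSG00000042650.3, mm10 chr11:60536381-60558512, plus strand) was at 375 and 417 TPM at day 7 and 316, 293 and 311 TPM at day 21 in 4F. All 3 libraries at day 21 were below both at day 7. The log2 fold change was -0.37 ± 0.10 (SE, limma, adjusted p = 0.0291), 0.53 below the median gene, and it was negative under all 17 alternatives, between -0.92 and -0.29. It passed in 9 of them, and was lost without replicate 2 of day 7 (-0.29, limma adjusted p = 0.108), without each of the 3 libraries of day 21 in 4F and without either of 8F (limma adjusted p from 0.0511 to 0.0732), with the replicate block (0.0986) and without the trend of the variance (0.149).

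Fto (ENSMUSG00000055932.15, mm10 chr8:91313525-91668439, plus strand) was at 12.6 and 10.97 TPM at day 7 and 4.16, 3.29 and 8.12 TPM at day 21 in 4F. All 3 libraries at day 21 were below both at day 7, but replicate 3 was well above the other two. The log2 fold change of -1.12 ± 0.41 (SE) did not pass in limma (adjusted p = 0.0708). It passed without that replicate (-1.44, limma adjusted p = 0.0225), after median of ratios (-1.42) and with voom (-1.83). It also passed with the replicate block (-1.44), but that fit sets aside replicate 3, the only one of its number, and is not a separate check. The ratio of Alkbh5 to Fto within a library was 29.8 and 38.0 at day 7 and 76.0, 89.1 and 38.3 at day 21 in 4F, so that replicate 3 was close to day 7.

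**Figure D2:**
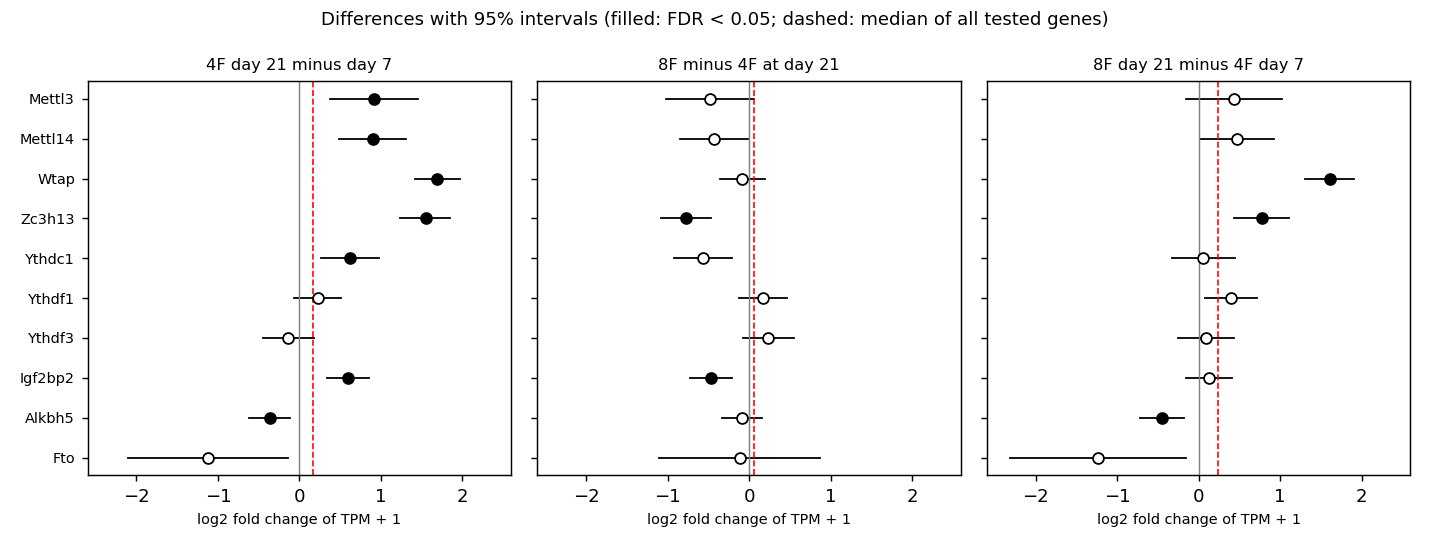
Log2 fold change of TPM + 1 (horizontal axes) of the 10 m6A genes with 95% intervals in 3 comparisons, filled where the limma adjusted p passed FDR 0.05; the dashed line is the median of all 21780 tested genes. In the 4F comparison of days, Wtap at 1.69 and Zc3h13 at 1.55 lie farthest to the right.

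**Figure D3:**
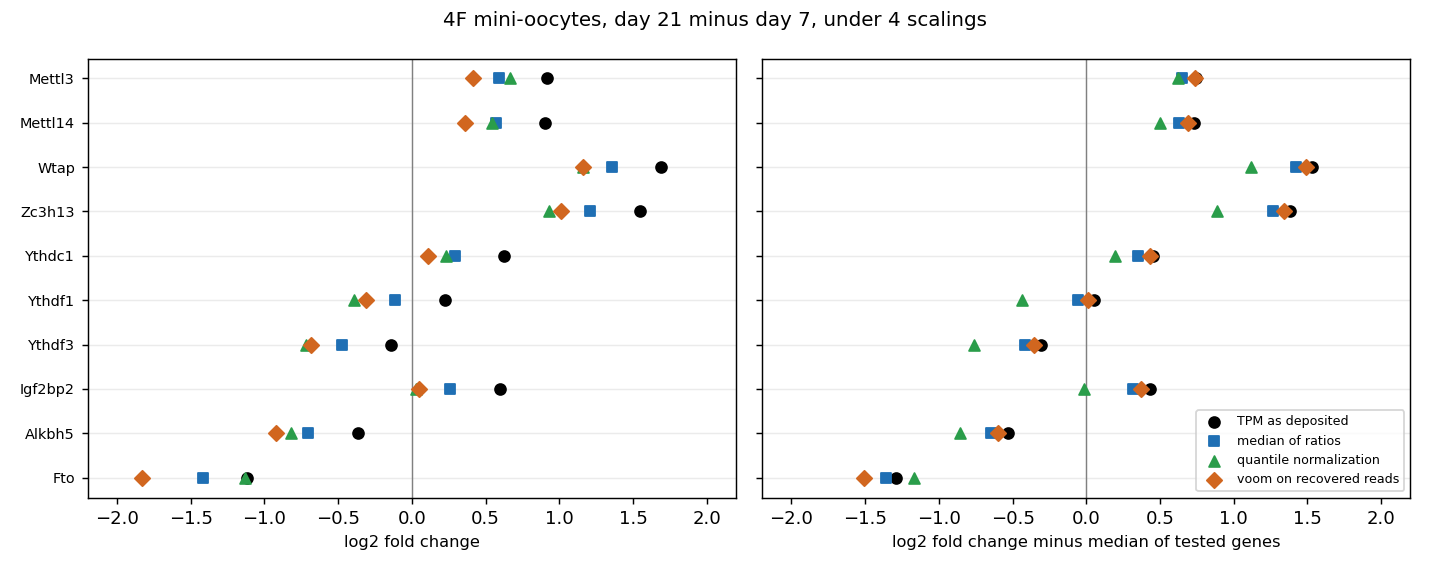
Log2 fold change from day 7 to day 21 in 4F (left, horizontal axis) and the same minus the median of all genes tested (right) for each m6A gene, as deposited and under 3 other scalings. Wtap runs from 1.16 to 1.69 and Alkbh5 stays negative throughout, while Ythdf1 changes sign on the left.

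The second comparison set 8F against 4F at day 21, when their pools were of equal size. The 4F and 8F cells are separate lines, and the 8F line also carries the Npm2-mCherry reporter. The 4 added factors therefore cannot be told apart from other differences between the lines. Of the 10 genes, 2 were lower in 8F, none was higher and 8 did not pass (limma, Benjamini-Hochberg FDR 0.05), and no setting called any of them higher. Of all genes tested, 8.37% passed, 3.95% as higher and 4.41% as lower in 8F. The median log2 difference was -0.27 over the 10 genes and 0.06 over all genes tested. In limma, 4 of the 10 had an unadjusted p under 0.05, as had 4858 of all 21780 genes tested.

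Zc3h13 was at 154 and 186 TPM in 8F, against 317, 296 and 260 TPM in 4F, so both 8F libraries were below all 3 of 4F and above both of day 7. The log2 difference was -0.77 ± 0.13 (SE, limma, adjusted p = 0.0200). It was negative under all 17 alternatives, between -0.91 and -0.62, and passed in 11. It was lost without replicate 1 or 2 of 4F at day 21 (-0.71 and -0.76, limma adjusted p = 0.0541 and 0.0557), without either 8F library (-0.64 without replicate 1 and -0.91 without replicate 2, limma adjusted p = 0.221 and 0.0972), with the replicate block (limma adjusted p = 0.0817) and without the trend of the variance (0.0896). Its ratio to Wtap within a library was 1.37 and 1.53 in 8F, below the lowest of the other 5 libraries, 2.18.

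Igf2bp2 was at 233 and 249.5 TPM in 8F, below all 3 libraries of 4F at day 21 and within or just above the range at day 7. The log2 difference was -0.47 ± 0.11 (SE, limma, adjusted p = 0.0470), close to the threshold, and it passed in 7 of 17 alternatives while negative in all. It was lost without each of the 5 libraries at day 21, with limma adjusted p from 0.0772 to 0.405, after median of ratios (0.0879) and quantile normalization (0.0783), with the replicate block (0.147), without a filter (0.0731) and without the trend of the variance (0.209).

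Ythdc1, Mettl3 and Mettl14 had lower means in 8F without passing. Ythdc1 was at 25.8 and 28.8 TPM in 8F, below every 4F library at day 21 and beside those of day 7, with a log2 difference of -0.57 (95% interval -0.92 to -0.21, limma adjusted p = 0.0684). It passed with only these 2 groups in the fit (limma adjusted p = 0.0468) and with voom (0.0437). Mettl3 was at 23.3 and 20.03 TPM, a log2 difference of -0.48 (-1.02 to 0.06, limma adjusted p = 0.277), and Mettl14 at 31.6 and 35.4 TPM, a log2 difference of -0.43 (-0.84 to -0.02, limma adjusted p = 0.207). For both genes the 8F libraries were below all of 4F at day 21 and above both of day 7.

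For the remaining 5 genes the intervals included 0. Wtap was at 112 and 122 TPM in 8F, which overlapped 4F at day 21, with a log2 difference of -0.08 (-0.36 to 0.19, limma adjusted p = 0.755). Alkbh5 was at 274 and 307 TPM, also overlapping, with -0.08 (-0.33 to 0.17, limma adjusted p = 0.73). Ythdf1 at 94.3 and 98.4 TPM and Ythdf3 at 68.6 and 71.3 TPM were above all 3 libraries of 4F, with log2 differences of 0.17 (-0.12 to 0.47) and 0.23 (-0.08 to 0.55) that did not pass in limma (adjusted p = 0.485 and 0.365). Fto was at 4.85 and 4.03 TPM, within the range of 4F, and its log2 difference of -0.11 had an interval from -1.10 to 0.87 (limma, adjusted p = 0.923).

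The third comparison set 8F at day 21 against 4F at day 7. It shares its libraries with the other 2 comparisons, and day, Shield-1 in fresh medium, factors, cell line and pool size change together in it. Of the 10 genes, Wtap and Zc3h13 were higher, Alkbh5 was lower and 7 did not pass (limma, FDR 0.05), against 37.2% of all genes tested in either direction, 24.2% higher and 13.0% lower. Wtap had a log2 fold change of 1.61 ± 0.13 (SE, limma, adjusted p = 0.00034), Zc3h13 0.78 ± 0.14 (adjusted p = 0.00659) and Alkbh5 -0.45 ± 0.11 (adjusted p = 0.0214). Zc3h13 did not pass without replicate 2 of 8F (0.64, limma adjusted p = 0.0561), nor after median of ratios (0.45), quantile normalization (0.22) or with voom (0.39). Alkbh5 did not pass without replicate 2 of day 7 (-0.37) or without replicate 1 or 2 of 8F (-0.37 and -0.53), nor with the replicate block (limma adjusted p = 0.066), with only these 2 groups in the fit (0.0614) or without the trend of the variance (0.119). For Ythdc1 and Igf2bp2, called in 4F over time, the values in this comparison were 0.06 (-0.33 to 0.44) and 0.13 (-0.16 to 0.41), and their sign turned under 3 other scalings. Igf2bp2 then passed as lower after quantile normalization (-0.38, limma adjusted p = 0.0439) and with voom (-0.28, 0.0393), and Ythdf3 after quantile normalization (-0.46, 0.0464). Fto, at -1.23 (limma, adjusted p = 0.0734), passed as lower under all 3 other scalings, with only 2 groups in the fit and without replicate 3 of 4F at day 21, and Ythdf1, at 0.40 (0.058), passed as higher with only 2 groups and without replicate 2 of 4F at day 21.

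Other genes of the pathway were taken from lists of 31 genes. Between day 7 and day 21 in 4F, 5 rose, 6 fell and 20 did not pass in limma, a share called that was near the 40.6% of all genes tested, with a median log2 fold change of -0.20. Between 8F and 4F at day 21, 2 were lower, none was higher and 29 did not pass in limma, against 8.37% called among all genes tested. Their median log2 difference was 0.12. An unadjusted p under 0.05 in limma was found for 6 of the 31, against 4858 of all 21780 genes tested. Of the 4 other writer complex subunits, Cbll1, an E3 ligase-like subunit also called Hakai, rose from 34.7 and 32.8 TPM to 64.5, 46.8 and 75.2 TPM in 4F (log2 0.84 ± 0.21, SE, limma, adjusted p = 0.0184), though not after any of the 3 other scalings nor without either day 7 library or replicate 1 of day 21 (limma adjusted p from 0.0515 to 0.0734), nor with the replicate block (0.0597). Virma, the scaffold subunit, was at 69.0 and 56.8 TPM at day 7 and 50.6, 42.0 and 48.8 TPM at day 21 in 4F, with all later libraries below both earlier ones and a log2 fold change of -0.41 (limma, adjusted p = 0.0635). It passed as lower without replicate 2 of day 7 (-0.55, limma adjusted p = 0.0493) and after each of the 3 other scalings. Of the 5 other RNA methyltransferases, among them Mettl16, which methylates a small nuclear RNA, none passed in either comparison, with none at an unadjusted p under 0.05 in limma.

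Among the 9 other readers, 2 rose (Fmr1 and Ythdf2), 2 fell (Igf2bp1 and Prrc2a) and 5 did not pass in limma between the days in 4F. Igf2bp1 was at 61.7 and 43.8 TPM at day 7 and at 1.63, 0.57 and 1.45 TPM at day 21 in 4F, so every later library was far below both earlier ones. Its log2 fold change of -4.61 ± 0.40 (SE, limma, adjusted p = 0.000311) passed under all 17 alternatives, between -6.04 and -3.20, in the opposite direction to Igf2bp2. Igf2bp3 was at 52.5 and 48.9 TPM at day 7 and 39.8, 41.5 and 41.2 TPM at day 21 in 4F, with a log2 fold change of -0.31 (limma, adjusted p = 0.0896). Ythdf2, the YTHDF protein known for the decay of maternal messages, rose from 132 and 124 TPM to 229, 216 and 192 TPM (0.73 ± 0.11, SE, limma, adjusted p = 0.00281), was at 221 and 241 TPM in 8F, and was the highest of the 3 Ythdf genes in every library. The call of Ythdf2 held without any 1 library and was lost after quantile normalization (0.10) and with voom (0.19). Prrc2a fell from 165 and 170 TPM to 114, 104 and 142 TPM (-0.49, limma, adjusted p = 0.0393), but not without 6 of the 7 libraries, each library but replicate 3 of 4F at day 21 (limma adjusted p from 0.0653 to 0.122), and it passed in 8 of 17 alternatives.

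**Figure D4:**
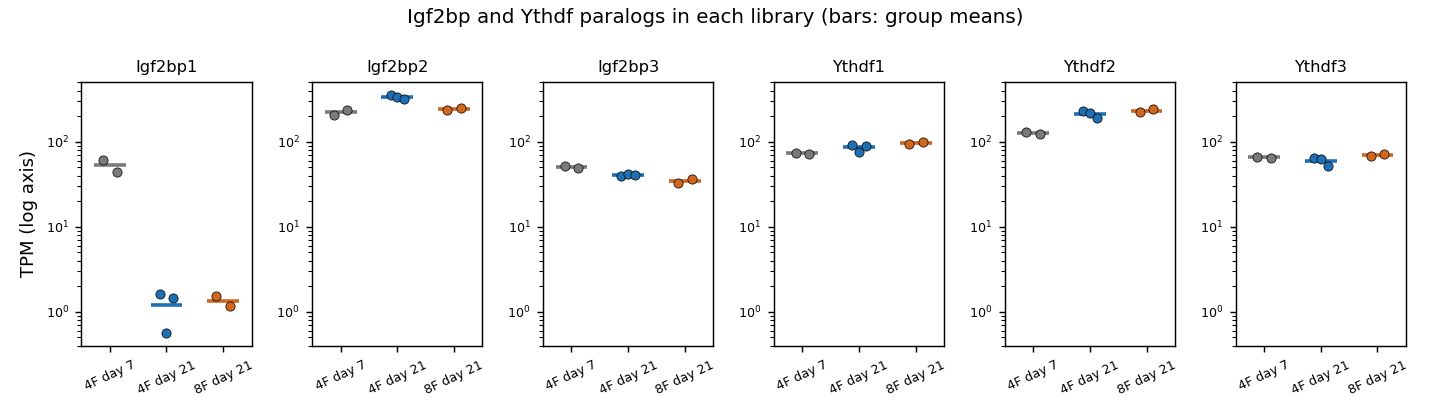
TPM on a log axis of the Igf2bp and Ythdf paralogs in the 7 libraries, with points for libraries and bars for group means. Igf2bp1 drops from 61.7 and 43.8 TPM at day 7 to under 2 TPM in all 5 libraries at day 21, while the lowest library of Igf2bp2 is at 206 TPM.

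Fmr1, which encodes the RNA-binding protein FMRP, was the gene of the lists lower in 8F together with Hnrnpa2b1, a nuclear RNA-binding protein. Fmr1 was at 49.0 and 46.6 TPM at day 7, 82.9, 89.4 and 75.2 TPM in 4F at day 21 and 51.6 and 51.2 TPM in 8F, so that 4F at day 21 stood above all other libraries. It rose in 4F (0.77, limma, adjusted p = 0.00281), a call lost after quantile normalization (0.20) and with voom (0.24), and was lower in 8F (-0.67, adjusted p = 0.0232). Hnrnpa2b1 was at 179, 179 and 171 TPM in 4F at day 21 and 108 and 115 TPM in 8F (-0.65, limma, adjusted p = 0.0211). Both calls between 8F and 4F were lost without either 8F library (limma adjusted p from 0.156 to 0.243), without replicate 1 or 2 of 4F at day 21, and for Hnrnpa2b1 also without replicate 3 (limma adjusted p from 0.0513 to 0.0601). Neither passed with the replicate block (limma adjusted p = 0.0937 for Fmr1 and 0.108 for Hnrnpa2b1) or without the trend of the variance (0.0984 and 0.111).

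Likeness of pattern was measured over the 7 libraries as the root mean square difference of log2(TPM + 1) after centring each gene on its own mean, among 40 genes of the lists for each of the 10. The most alike to Ythdc1 was Fmr1 (0.10), and the most alike to Igf2bp2 was Ythdc1 (0.12). For Mettl3 it was Fmr1 (0.17), for Mettl14 it was Cbll1 (0.17), for Wtap it was Mat2b (0.28) and for Zc3h13 it was Mettl3 (0.32). For Ythdf1 it was Hnrnpc (0.13), for Ythdf3 it was Mat2a (0.13), for Alkbh5 it was Igf2bp3 (0.10) and for Fto it was Prrc2a (0.35). The measure is not scaled to how far a gene varied, so genes that varied little come out alike more easily. The range of log2(TPM + 1) over the libraries was 0.45 for both Ythdf1 and Ythdf3, against 1.66 for Fto and 1.86 for Wtap. These are descriptions of 7 libraries in 3 groups. At day 21 the libraries of Wtap overlapped between 4F and 8F. On the deposited scale, Mettl3, Mettl14, Zc3h13, Ythdc1 and Igf2bp2 were each highest in 4F at day 21, without overlap with either other group. Of these, only Zc3h13 and Igf2bp2 passed in limma between 8F and 4F at day 21. How many of all genes tested had such a pattern was not counted, so it cannot be called particular to these genes.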

How the data were processed

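RNA of pooled mini-oocytes was amplified with the SMART-seq Stranded kit and sequenced in 7 libraries. The authors used Trim Galore for trimming, HISAT2 for alignment to mm10, bedtools to discard rRNA reads and featureCounts to assign unique alignments to GENCODE genes, giving a fraction to each overlapping gene, and deposited TPM. Sequencing used 2 instrument models that the methods do not assign to libraries. The counts that the authors tested with edgeR were not used here.

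The 21780 genes that reached 1 TPM in 2 or more libraries entered a two-sided test of log2(TPM + 1) over 3 groups (lmFit and trended eBayes of limma 3.58.1, R 4.3.3). P-values were adjusted over all of them with the Benjamini-Hochberg method at FDR 0.05. A fold change on this scale understates changes of low genes. The labels do not say whether replicates were separate cultures, so p-values measure the spread between these samples.

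Alternatives were pseudocounts of 0.1 and 5, no filter or 5 TPM, median of ratios, quantile normalization, no trend, only 2 groups, the replicate block, voom on reads recovered from the steps of low TPM values (77.7% to 83.8% of them whole within 0.01 read, more as fractions of a read shared between genes), and each library left out. The test was checked on simulated data. Exon lengths and coordinates were those of GENCODE vM21 on mm10, which matched all 10 genes with their version. Similar copies were sought with blastn 2.17.0 (at least 95% identity over 150 bases). The genes and lists were chosen with earlier results of these data known, and named genes are all 10 plus list genes past FDR 0.05, and Virma, Igf2bp3, Cpsf6, Mettl16, Tox4, Gm14292 and Gm43055, chosen after their values were seen, besides the most alike genes.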

Additional observations from a re-analysis of the deposited data

How the results depend on the processing

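The 10 m6A genes kept their direction in most of 17 alternatives. The exceptions did not pass FDR 0.05 in the main fit. The largest of them there was Ythdf1 between 8F at day 21 and 4F at day 7, at 0.40. Some passed FDR 0.05 as lower after turning. Ythdf1 did so from day 7 to day 21 in 4F after quantile normalization. Between 8F at day 21 and 4F at day 7, Igf2bp2 did so after quantile normalization and with voom, and Ythdf3 after quantile normalization. Between 8F and 4F, voom turned Alkbh5 (0.071), Fto (0.0417) and Wtap (0.0696), and the replicate block turned Fto (0.21). Of the other listed genes, Igf2bp1 turned after quantile normalization (-0.26). With 1 library left out the values ran from -0.163 to 0.000712 for Alkbh5, from -0.34 to 0.205 for Fto and from -0.113 to 0.259 for Igf2bp1. From day 7 to day 21 in 4F, Ythdf1 turned after median of ratios (-0.11), quantile normalization (-0.40) and with voom (-0.31). Between 8F at day 21 and 4F at day 7, in the same order, the values were -0.20, -0.38 and -0.28 for Igf2bp2, -0.26, -0.30 and -0.32 for Ythdc1 and -0.23, -0.46 and -0.29 for Ythdf3, with -0.16 for Ythdf1 after quantile normalization and -0.0471 to 0.157 for Ythdc1 without 1 library. All genes called between 8F and 4F numbered 1822, with 994 without the trend, 164 with the replicate block and 86 to 2231 without 1 library, lowest without replicate 1 of 8F (86) and replicate 2 (98). Leaving out replicate 1, 2 or 3 of 4F at day 21 gave 1030, 1077 and 1068. Of the 10 genes, 1 was called there with no filter, after median of ratios and after quantile normalization, 0 without the trend and with the replicate block, and 0 to 2 without 1 library. From day 7 to day 21, 4 to 7 were called without 1 library, 4 without replicate 2 of day 7. Between 8F at day 21 and 4F at day 7, 5 were called after quantile normalization and 1 to 4 without 1 library, 1 without replicate 2 of 8F, and all genes called ran from 3642 (without replicate 2 of 8F) to 8377, with 3777 without replicate 1. The causes were not tested. Replicate numbers did not pair the libraries (correlations of deviations from -0.037 to 0.037). Fto, with 186 to 747 reads per library, had the largest SE of the 10 genes in each comparison.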

Other observations

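Other genes linked to m6A moved between day 7 and day 21 in 4F. Mat2b, which encodes the regulatory subunit of the enzyme that makes the methyl donor S-adenosylmethionine, rose from 71.8 and 88.6 TPM to 216, 191 and 231 TPM, and stood at 297 and 324 TPM in 8F. Every library at day 21 was above both at day 7, and the log2 fold change in 4F was 1.40 ± 0.14 (SE, limma, adjusted p = 0.000456), past the threshold in all 17 alternatives. Of the 3 methyl donor enzymes listed it was the only one called in this comparison. Mat2a, its catalytic partner, was at 68.1 and 76.4 TPM at day 7 and 61.1, 54.3 and 53.1 TPM at day 21 in 4F (-0.36, limma, adjusted p = 0.0527).

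Of 3 known partners of YTHDC1, the splicing factors Srsf3 and Srsf7 fell in 4F, and Cpsf6, a factor of 3′ end processing, was not called (0.19, limma, adjusted p = 0.403). Srsf3 went from 46.3 and 52.9 TPM to 24.1, 20.8 and 20.2 TPM (-1.16 ± 0.16, SE, limma, adjusted p = 0.00171) and passed in all 17 alternatives. Srsf7 went from 104 and 80.3 TPM to 61.9, 44.6 and 35.7 TPM (-0.96, limma, adjusted p = 0.0185) and did not pass without replicate 1 of day 7 (-0.78, limma adjusted p = 0.102) or with only the 2 groups in the fit (0.0543). Among 7 relatives of the AlkB family, to which both erasers belong, Alkbh2, a DNA repair enzyme, rose from 11.7 and 5.07 TPM to 17.5, 18.5 and 19.8 TPM, while Alkbh1 fell from 9.48 and 7.90 TPM to 2.02, 4.39 and 3.11 TPM and Alkbh8, a tRNA-modifying enzyme, from 11.2 and 9.29 TPM to 4.25, 2.66 and 1.39 TPM. Their limma adjusted p was 0.0287, 0.0446 and 0.0239, and they passed in 7, 6 and 11 of 17 alternatives. Among the fits with 1 library left out, Alkbh2 passed only without replicate 1 of day 7, Alkbh1 only without replicate 2 of 4F at day 21, and Alkbh8 without each of the 3 libraries of 4F at day 21 and not without any of the other 4.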
